A study of Mus musculus with 12 samples.

Results

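Wnt proteins are secreted lipid-modified signals. They are read by Frizzled receptors together with the co-receptors Lrp5 and Lrp6, or by the alternative receptors Ror1, Ror2 and Ryk. The genes described here were all probe sets of the array with exactly 1 gene symbol that begins with Wnt or Fzd and a digit, or that is Lrp5, Lrp6, Ror1, Ror2 or Ryk. They made 36 of 35512 probe sets and 35 of 19938 genes: 19 ligands, 10 Frizzled receptors, 2 co-receptors, 3 alternative receptors and Fzd10os, a noncoding transcript from the strand opposite Fzd10 that matches the rule by its letters and is no receptor. The rule uses gene symbols and no measured value.

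The study measured gene expression in sorted mouse epidermal stem cells on 12 whole-transcript microarrays, 3 in each of 4 groups. The clock-positive and clock-negative groups were bulge cells, in which the hair follicle keeps its stem cells, from the dorsal skin of mice 18 to 19 days old. These mice carry Per1-Venus, in which the clock gene Per1 drives a fluorescent protein. Cells bright for alpha6 integrin and positive for CD34 were parted into Venus-bright (clock-positive) and Venus-dim (clock-negative) cells, with about 20 mice in each sample. The labels of the clock-negative samples also name the Venus-high gate, so the groups follow the sample titles and the design text. The groups labelled KO and wild type were basal cells of the interfollicular epidermis (IFE), the skin between the follicles, from mice 1 year old with an epidermal Bmal1 knockout or with the wild-type gene, with 5 mice in each sample. The Cre line and the deleted exons of the knockout are not given in the sources used here. The animals had no treatment. Each sample is a pool, so the spread between samples is a spread between pools, and nothing says whether a clock-positive and a clock-negative sample came from the same mice.

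The values are log2 intensities, on which a difference of 1 is a 2-fold difference. Array medians lay between 6.82 and 6.84 on the clock-positive arrays and between 6.94 and 7.01 on the clock-negative arrays, and between 7.75 and 7.80 on the 6 IFE arrays. Per1 rose in clock-positive cells by 0.51 ± 0.07 (SE, adjusted p = 0.000195), with 9.77, 9.72 and 9.81 on the clock-positive arrays and 9.36, 9.20 and 9.19 on the clock-negative arrays. The bulge marker Cd34 had means of 10.97 on the clock-positive and 9.52 on the clock-negative arrays, although both groups were sorted as positive for CD34. The reason for that gap was not tested. The basal keratin genes Krt5 and Krt14 stood in the top 1% of genes by level on the IFE arrays. Arntl, the gene of Bmal1, read 9.84, 9.60 and 9.55 on the arrays labelled KO and 9.27, 9.47 and 9.34 on the arrays labelled wild type (0.30 ± 0.12, adjusted p = 0.530). The arrays labelled KO were thus the higher ones, which goes against that label unless the probe set lies outside the deleted part, and which part of the gene it reads was not tested. Per1, a target gene of Bmal1, read 10.30, 9.19 and 9.02 on the KO-labelled arrays and 9.94, 9.69 and 10.42 on the WT-labelled arrays, with overlap, and did not pass (-0.51 ± 0.33, adjusted p = 0.844). Directions between these groups are therefore given as the labels have them.

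Wnt signalling has a central place in the hair follicle. Ligands that act through Frizzled and Lrp5 or Lrp6 stabilise beta-catenin, which works with Tcf and Lef factors on target genes and is needed for bulge cells to start new hair growth. Other ligands act through Frizzled, Ror or Ryk without beta-catenin, and set cell polarity and movement. The bulge is known for high levels of Tcf7l1 and of secreted Wnt antagonists while the follicle rests.

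The promoters of Fzd1, Fzd7, Fzd9 and Wnt9b are shown for reference, as a choice among the members that moved with the clock reporter. The E-box CACGTG is the site that Bmal1 and its partner Clock are known to bind. CTTTGA is a form of the sites bound by Tcf and Lef factors, and other forms were not counted. Windows from 250 bases before to 50 bases after the start, from RefSeq (build GRCm38.p6), were found for 24 of the 35 genes, in 27 windows. Fzd2 and Fzd3 had none. The 250 bases before the start are printed 5′ to 3′ on the strand of the gene, with matches to either motif on either strand in capitals. Those of Fzd7 (chr1:59481897-59482146, plus strand) and Wnt9b (chr11:103749822-103750071, minus strand) hold neither motif. That of Fzd1 (chr5:4758217-4758466, minus strand) holds CTTTGA read from the other strand, beginning 242 bases before the start. That of Fzd9 (chr5:135251048-135251297, minus strand) holds an E-box beginning 88 bases before the start.
Fzd7: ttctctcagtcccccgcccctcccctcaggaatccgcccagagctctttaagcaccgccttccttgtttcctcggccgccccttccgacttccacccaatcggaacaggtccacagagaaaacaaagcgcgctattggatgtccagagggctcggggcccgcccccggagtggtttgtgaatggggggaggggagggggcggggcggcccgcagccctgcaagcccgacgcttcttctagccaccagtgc
Fzd1: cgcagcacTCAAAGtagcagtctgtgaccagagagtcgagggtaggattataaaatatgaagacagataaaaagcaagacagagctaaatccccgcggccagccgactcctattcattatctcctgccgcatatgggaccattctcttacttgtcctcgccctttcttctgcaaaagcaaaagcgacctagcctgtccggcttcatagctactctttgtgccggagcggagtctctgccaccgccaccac
Fzd9: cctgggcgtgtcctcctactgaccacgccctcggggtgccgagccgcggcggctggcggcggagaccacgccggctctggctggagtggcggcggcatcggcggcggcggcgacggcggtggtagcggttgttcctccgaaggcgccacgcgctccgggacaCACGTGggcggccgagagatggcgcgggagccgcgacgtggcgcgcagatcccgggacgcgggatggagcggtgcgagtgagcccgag
Wnt9b: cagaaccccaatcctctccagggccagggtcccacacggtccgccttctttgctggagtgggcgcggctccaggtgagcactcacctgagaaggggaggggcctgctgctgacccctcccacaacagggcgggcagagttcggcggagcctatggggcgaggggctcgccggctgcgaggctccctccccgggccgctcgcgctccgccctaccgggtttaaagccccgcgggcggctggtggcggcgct

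An E-box stood in the windows of 2 member genes, Fzd9 and Wnt9a, which is 7.41% of the member windows, against 7.15% of all 32851 RefSeq windows. CTTTGA stood in the windows of 4, namely Fzd1, Ror1, Wnt11 and Wnt5b, which is 14.8% of the member windows, against 16.0% of all windows. No member window held both motifs. A match is a description of the letters only.

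The first comparison asked how the ligand and receptor genes differ between bulge cells with a bright and with a dim clock reporter. Of 15 receptor genes tested, 11 rose and 0 fell, led by Fzd2 and Fzd3 at more than 2-fold, and of 16 ligand genes tested, 6 fell and 0 rose, led by Wnt9b at 1.49-fold lower. After each array was centred on its median, 3 ligands passed as higher and 4 as lower, while with quantile normalization or cyclic loess 7 ligands passed as lower and 0 as higher. Between 10 and 12 receptors passed as higher under each of the 4 scalings, and Ror1 passed as lower after cyclic loess. This reads against a very broad difference between the groups. Of 13956 genes tested with limma, 63.5% passed an adjusted p of 0.05, 45.2% as higher and 18.3% as lower, and the median change of all genes was 0.15. The shares of all genes called were 64% higher and 9.71% lower with median centring, 29.5% and 12.2% with quantile normalization, and 25.3% and 15.8% with cyclic loess. In sorted pools such as these, fewer cells of a type and less RNA per cell cannot be told apart.

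Against that background 73.3% of the receptors were higher, and 37.5% of the ligands were lower. Calls also moved with level. With no filter on dim genes and all genes split by mean level into 10 groups of equal size, 5 of the 16 ligands (31.2%) were lower, against a mean of 25.5% of all genes in the level groups those ligands fell in. In the same fit 11 of the 15 receptors (73.3%) were higher, against 49.3% of genes in their level groups. The share of lower ligands is thus near that of genes of like level. In that fit 0 of the 16 ligands were higher, against 35.8% of genes in their level groups. Of the 15 receptors 0 were lower, against 12% in theirs. The median change of the receptors was 0.30, which is 0.16 above the median of all genes, and that of the 10 Frizzled receptors was 0.46. The ligands had a median change of -0.11, which is 0.26 below the median of all genes. Median centring moved the median of all genes to 0.29 and that of the ligands to 0.03, still 0.26 below, whereas quantile normalization and cyclic loess moved the median of all genes to 0.07 and 0.04 and left the ligands 0.13 below it. At a fold of at least 1.5, 5 receptors and 0 ligands passed as higher, against 5.12% of all genes, and 0 members passed as lower, against 2.11%. The 3 arrays of one group all lay above the 3 of the other for 12 receptors, each higher in clock-positive cells, and for 6 ligands, each lower. Of all genes, 50.1% were apart in this way as higher and 19.1% as lower.

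Fzd2, a receptor for Wnt5a and Wnt3a, read 10.62, 10.64 and 10.72 on the clock-positive arrays and 9.37, 9.36 and 9.40 on the clock-negative arrays. The groups stand far apart and each is tight. The change was 1.29 ± 0.06, or 2.44-fold (adjusted p = 3.82e-07).

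Fzd3, which works in planar cell polarity and axon guidance, had 8.76, 8.68 and 8.78 on the clock-positive arrays and 7.61, 7.39 and 7.38 on the clock-negative arrays. It rose by 1.28 ± 0.08, or 2.43-fold (adjusted p = 1.02e-06), with no overlap. Under the 4 scalings the change of Fzd2 stayed between 1.09 and 1.43 and that of Fzd3 between 1.13 and 1.42.

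Fzd7 is known as a receptor of stem cells in the intestine. Its clock-positive values were 9.55, 9.58 and 9.55, against clock-negative values of 8.75, 8.60 and 8.66, a rise of 0.89 ± 0.06 or 1.85-fold (adjusted p = 3.39e-06). Fzd1, a close relative of Fzd2 and Fzd7, had 9.68, 9.80 and 9.84 in clock-positive cells and 8.93, 9.10 and 9.03 in clock-negative cells. It rose by 0.75 ± 0.07, or 1.69-fold (adjusted p = 2.19e-05). Fzd1, Fzd2 and Fzd7 form 1 subfamily of the Frizzleds, and all 3 rose past 1.5-fold with the deposited values. The change of Fzd1 was 0.57 after quantile normalization and 0.53 after cyclic loess, both below 1.5-fold.

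Fzd8, a beta-catenin pathway receptor, gave 7.38, 7.45 and 7.62 on clock-positive and 6.72, 6.95 and 6.81 on clock-negative arrays, with no overlap. The rise was 0.65 ± 0.08, or 1.57-fold (adjusted p = 0.000157). Its relative Fzd5, needed in the mouse for yolk sac vessels, rose less. It had 7.71, 7.62 and 7.64 in clock-positive cells and 7.37, 7.41 and 7.47 in clock-negative cells (0.24 ± 0.06, adjusted p = 0.00800).

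Among the other Frizzleds, Fzd9 had 7.54, 7.60 and 7.71 on the clock-positive arrays and 7.34, 7.49 and 7.20 on the clock-negative arrays. The rise was 0.27 ± 0.08 (adjusted p = 0.0166), and the call was lost without clock-positive array 3 and without clock-negative array 3. Fzd4, the receptor of Norrin in retinal vessels, had 6.81, 6.60 and 6.74 on the clock-positive arrays and 6.38, 6.60 and 6.44 on the clock-negative arrays. Its middle arrays touch, and its rise of 0.24 ± 0.08 (adjusted p = 0.0214) was lost on leaving out any of clock-positive arrays 1 and 3 and clock-negative arrays 1 and 3. Fzd6, which sets the orientation of mouse hair, and Fzd10 did not pass, with changes of 0.10 ± 0.06 (adjusted p = 0.175) and 0.01 ± 0.07 (adjusted p = 0.851). Fzd6 passed as higher (0.24) after median centring, and its change was -0.06 after quantile normalization and -0.11 after cyclic loess.

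Both co-receptors rose. Lrp6 read 9.64, 9.66 and 9.58 in clock-positive cells and 9.35, 9.16 and 9.14 in clock-negative cells (0.41 ± 0.07, adjusted p = 0.000972). Lrp5 read 9.86, 9.92 and 9.85 in clock-positive cells and 9.66, 9.58 and 9.47 in clock-negative cells (0.30 ± 0.07, adjusted p = 0.00343). Neither pair of groups overlaps, yet Lrp5 did not pass after quantile normalization (0.15) or cyclic loess (0.10).

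Of the alternative receptors, Ryk, a receptor with an inactive kinase domain, rose. It had 10.38, 10.40 and 10.30 on the clock-positive arrays and 9.97, 9.79 and 9.90 on the clock-negative arrays, a change of 0.47 ± 0.07 or 1.39-fold (adjusted p = 0.000334). The receptor tyrosine kinases Ror1 and Ror2, receptors for Wnt5a, had overlapping groups and changes of -0.09 ± 0.07 (adjusted p = 0.270) and -0.07 ± 0.07 (adjusted p = 0.405). The 95% intervals were -0.24 to 0.06 for Ror1 and -0.22 to 0.09 for Ror2, and Ror1 passed as lower (-0.22) after cyclic loess.

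**Figure D1:**
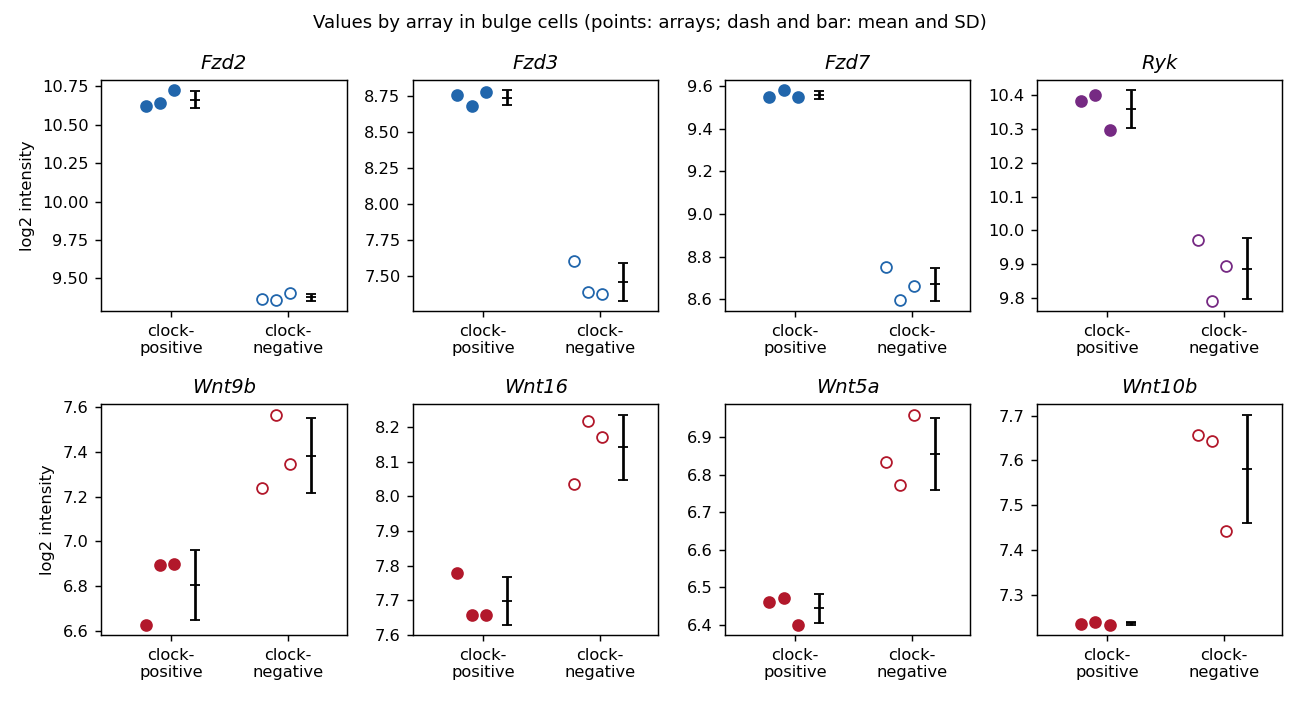
Log2 intensity of 4 receptor genes (top) and 4 ligand genes (bottom) on each bulge array, with the mean and SD of the 3 arrays of each group. In every panel the clock-positive and clock-negative arrays do not overlap, with the receptors higher and the ligands lower in clock-positive cells, and each panel has its own axis, which does not start at 0.

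Wnt9b, a beta-catenin pathway ligand needed in the mouse for kidney tubules, had 6.63, 6.89 and 6.90 on the clock-positive arrays and 7.24, 7.57 and 7.35 on the clock-negative arrays. It fell by 0.58 on the log2 scale (SE 0.10, 1.49-fold, adjusted p = 0.000840). The SDs of 0.16 and 0.17 were the widest among the ligands that fell, and the groups still stand apart.

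Wnt16, a ligand known for its role in cortical bone, read 7.78, 7.66 and 7.66 in clock-positive cells and 8.04, 8.22 and 8.17 in clock-negative cells. It was 1.36-fold lower (-0.44 ± 0.07, adjusted p = 0.000552). Wnt5a, the main ligand of the branch without beta-catenin, gave 6.46, 6.47 and 6.40 in clock-positive cells and 6.83, 6.77 and 6.96 in clock-negative cells, and was 1.33-fold lower (-0.41 ± 0.07, adjusted p = 0.000676). Of the receptors named above as receptors for Wnt5a, Fzd2 rose and Ror1 and Ror2 did not pass. The other receptors were not sorted by the ligands they bind.

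Wnt10b, a ligand of the hair placode, had 7.23, 7.24 and 7.23 on the clock-positive and 7.66, 7.64 and 7.44 on the clock-negative arrays (-0.35 ± 0.07, adjusted p = 0.00236). Wnt3a, the classical beta-catenin ligand, had 7.13, 7.22 and 7.22 on the clock-positive and 7.52, 7.54 and 7.37 on the clock-negative arrays (-0.29 ± 0.07, adjusted p = 0.00522). Both fell with no overlap. Wnt3a did not pass after median centring (-0.14). Wnt11, which guides cell movements in the early embryo, read 6.50, 6.70 and 6.66 in clock-positive and 6.75, 6.90 and 6.78 in clock-negative cells (-0.19 ± 0.07, adjusted p = 0.0445). That call is the least firm of the 6: it was lost under every other scaling, where the change was -0.05 to -0.02, and on leaving out any of clock-positive arrays 1 and 3 and clock-negative arrays 2 and 3.

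The other 10 ligands tested did not pass. Their changes ran from -0.14 for Wnt9a to 0.15 for Wnt7b, with standard errors from 0.06 to 0.11. The epithelial ligands Wnt3, Wnt4, Wnt7b and Wnt10a were in this group, with changes of 0.12, -0.06, 0.15 and -0.08. After median centring Wnt3 (0.26), Wnt5b (0.21) and Wnt7b (0.29) passed as higher, and Wnt10a (-0.26) and Wnt4 (-0.24) passed as lower once quantiles were equalised, so the direction of these 5 depends on the scaling. The second probe set of Wnt4 had a change of 0.04 (adjusted p = 0.550 over all probe sets). Wnt1, Wnt2 and Wnt8b were among the dimmest 30% of genes and were not tested. Of these, Wnt2 had 6.05, 6.12 and 6.06 in clock-positive and 6.34, 6.65 and 6.31 in clock-negative cells (-0.36 ± 0.09), without overlap. In the limma fit with no filter on dim genes Wnt2 passed as lower (adjusted p = 0.00788). It was not among the 16 ligands set against their level groups. Wnt1 and Wnt8b had -0.13 and -0.18 and did not pass in that fit.

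Fzd10os read 7.99, 7.99 and 8.12 on the clock-positive arrays and 8.42, 8.28 and 8.32 on the clock-negative arrays. It fell (-0.30 ± 0.07, adjusted p = 0.00353) while Fzd10 on the other strand did not pass, and after median centring it did not pass (-0.16). Which strand the labelled product reports was not tested.

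The direction of change in these arrays moved with the level of a gene. The clock-negative arrays had a narrower spread of values, with SDs of 1.88 to 1.91 over all probe sets, against 2.00 to 2.02 on the clock-positive arrays. Among all genes split by mean level into 10 bins of equal size, the median change was between -0.16 and -0.24 in each of the lowest 4 bins and between 0.20 and 0.26 in each of the highest 4. Set against the median of their own bin, 11 of the 15 receptors lay above it and 11 of the 16 ligands below it. Fzd2 was 1.09 above, Fzd3 1.06, Fzd8 0.77, Fzd7 0.64, Fzd1 0.50 and Fzd4 0.47. On the ligand side Wnt16 was 0.66 below, Wnt9b 0.46, Wnt10b 0.46 and Wnt3a 0.40, whereas Wnt5a was 0.19 below and Wnt11 was 0.03 above the median of its bin. The part of the level in the ligand and receptor calls was not tested further.

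**Figure D2:**
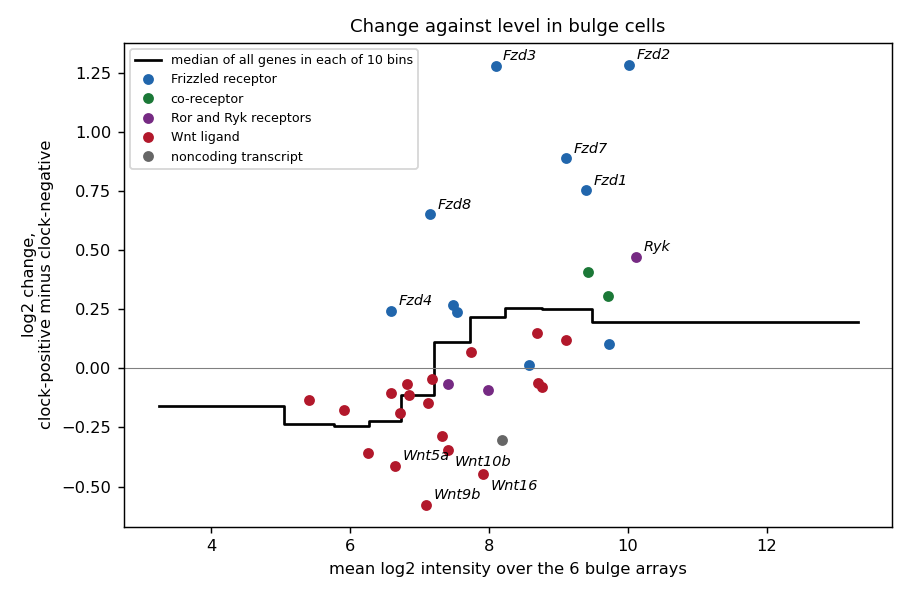
Log2 change in bulge cells, clock-positive minus clock-negative, against the mean log2 intensity over the 6 bulge arrays for the 35 genes. The black step is the median change of all genes in each of 10 bins by level. Fzd2, Fzd3, Fzd7, Fzd1 and Fzd8 lie 0.50 to 1.09 above the step, and Wnt16, Wnt9b and Wnt10b lie 0.46 to 0.66 below it.

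The rest of the pathway was read from lists of genes. Among 10 genes of Wnt secretion and extracellular carriers tested, 7 rose and 0 fell: the glypicans Gpc4 (0.65 ± 0.08) and Gpc6 (0.52 ± 0.08), which hold Wnt proteins at the cell surface, perlecan (Hspg2, 0.51 ± 0.06) and syndecan-1 (Sdc1, 0.40 ± 0.07) had the smallest p. Porcn, which adds the lipid to Wnt proteins, rose by 0.32 ± 0.07 (adjusted p = 0.00298), whereas Wls, which carries them to the surface, did not pass (0.02 ± 0.08, adjusted p = 0.853). After cyclic loess Wls passed as lower, while 7 genes of the list still passed as higher. Porcn and Wls were named for their role after their values were seen. These 7 of 10 stand beside 45.2% of all genes that rose. Neither this list nor the lists that follow were matched for level, with which calls moved. The median change of the list lay 0.21 above that of all genes.

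In the R-spondin module, which raises Frizzled levels by drawing Znrf3 and Rnf43 off the cell surface, the 3 Lgr receptors rose. Lgr5 had 10.06, 10.04 and 10.13 on the clock-positive and 8.80, 8.67 and 8.74 on the clock-negative arrays (1.34 ± 0.06, adjusted p = 4.12e-07). Lgr4 rose by 0.78 ± 0.09 and Lgr6 by 0.45 ± 0.06. Of the 9 genes tested, 2 fell, the ligands Rspo2 (-0.27 ± 0.07) and Rspo4 (-0.25 ± 0.08), and neither passed as lower under the other 3 scalings. The 33.3% of the module that rose is below the 45.2% of all genes.

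Of 19 beta-catenin transducers tested, 14 rose and 0 fell (73.7% higher, against 45.2% of all genes), and after cyclic loess 9 rose and 1 fell, where 25.3% of all genes rose. Every transducer tested but Apc2 stood in level groups 7 to 10, counted from the lowest. With no filter on dim genes, 54.2%, 66.2%, 65.2% and 56.5% of all genes in those groups were higher. The factors that bind DNA had the largest changes among them. Tcf7l1, a repressor known from bulge cells, read 8.93, 8.83 and 8.92 in clock-positive and 7.84, 7.74 and 7.79 in clock-negative cells (1.11 ± 0.06, adjusted p = 9.21e-07). Tcf7l2 rose by 0.72 ± 0.06, Lef1 by 0.66 ± 0.07 and Dvl3, which relays the Frizzled signal, by 0.43 ± 0.06. Of 16 genes of the planar cell polarity and calcium branch, 9 rose and 1 fell, and this 56.2% is not far from the 45.2% of all genes. Nfatc1 (0.76 ± 0.07), Prickle2 (0.68 ± 0.10), Vangl2 (0.50 ± 0.06) and Vangl1 (0.43 ± 0.07) had the smallest p, and the count of risen genes was 15 with median-centred arrays and 5 with quantile-normalised or loess-corrected ones, where 64%, 29.5% and 25.3% of all genes rose.

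The antagonists were split. Their list holds the membrane proteins Apcdd1, Kremen1 and Kremen2 beside secreted ones, and Kremen1 is among those that rose. Of 14 tested, 5 rose and 4 fell, or 35.7% and 28.6%, against 45.2% and 18.3% of all genes. Dkk3 read 10.31, 10.28 and 10.26 in clock-positive and between 8.90 and 9.04 in clock-negative cells (1.30 ± 0.06, adjusted p = 4.38e-07). Sfrp1, which binds Wnt proteins, rose by 0.84 ± 0.07, Igfbp4 by 0.81 ± 0.07 and Sostdc1 by 0.45 ± 0.07. The Lrp5 and Lrp6 blocker Dkk1 (-0.41 ± 0.09), Sfrp5 (-0.38 ± 0.09), Dkk4 (-0.32 ± 0.08) and Draxin (-0.26 ± 0.10) fell with these values. Dkk1 passed as lower under all 4 scalings and Sfrp5 also with median centring. Sfrp5 did not pass after quantile normalization or cyclic loess, where Apcdd1 passed as lower instead, and Dkk4 and Draxin passed with the deposited values alone.

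Markers of other cell types moved with the same contrast. Their counts stand beside 45.2% of all genes that rose and 18.3% that fell. Of 8 bulge markers tested, 7 rose and 0 fell, and their summed linear intensity was 16630 to 16680 on the clock-positive and 11440 to 11900 on the clock-negative arrays. After quantile normalization or cyclic loess 7 rose and 1 fell, namely Itga6, the gene of the sorting marker alpha6 integrin. Lgr5, Tcf7l1 and Nfatc1 stand in that list and in the pathway lists as well. All 5 T cell markers tested of 6 listed fell, with sums of 805.1 to 823.9 on the clock-positive and 1970 to 2314 on the clock-negative arrays, and Cd3g was lower by 1.69 on the log2 scale. The 5 Langerhans and myeloid markers all fell, with sums of 1350 to 1409 on the clock-positive and 2099 to 2285 on the clock-negative arrays, and 4 of them fell under each other scaling. The 6 markers of hair shaft and inner root sheath fell too, as did 5 of 5 melanocyte markers tested, of which 3 fell under each other scaling. All 5 endothelial markers rose, with sums of 1874 to 1881 on the clock-positive and 1266 to 1407 on the clock-negative arrays, and 4 rose after quantile normalization or cyclic loess. Of 6 fibroblast and papilla markers tested, 2 rose and 3 fell, and 0 or 1 fell under the other scalings. Of 6 interfollicular basal markers 2 rose and 0 fell, and of 4 markers of differentiated epidermis 0 rose and 2 fell. Among the basal markers 3 rose after median centring, Itga6 fell after quantile normalization, and Itga6 and Krt14 fell after cyclic loess. The counts for T cell, hair shaft and differentiated markers were the same under all 4 scalings. The part of these cell types in the ligand and receptor changes was not tested.

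The second comparison asked how the same genes differ in basal IFE cells between the arrays labelled Bmal1 KO and those labelled wild type (WT). None of the 32 ligand and receptor genes tested with limma passed, and their changes were small, from -0.26 for Wnt2b to 0.32 for Wnt16. Over all 13956 genes 0.193% passed (27 genes), so a count of 0 among 32 is near the background. At an unadjusted p under 0.05 there were 2 members, Wnt2b and Wnt5b, against 7.96% of all genes. With every alternative tried the count of members past the threshold was 0.

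The precision was lower than in the bulge. Standard errors ran from 0.09 to 0.27 on the IFE arrays, against 0.06 to 0.11 on the bulge arrays, and the 95% intervals of the 32 members together spanned -0.51 to 0.84. A change of 2-fold lay outside the interval of every member tested, and one of 1.5-fold inside that of several, such as Wnt5a (-0.42 to 0.84), Wnt16 (-0.06 to 0.70) and Fzd1 (-0.10 to 0.67).

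Wnt2b, a beta-catenin pathway ligand, had the smallest p. It read 7.50, 7.39 and 7.36 on the KO-labelled arrays and 7.54, 7.74 and 7.76 on the WT-labelled arrays, without overlap (-0.26 ± 0.11, adjusted p = 0.574). Wnt5b, a relative of Wnt5a, had 8.58, 8.62 and 8.58 on the KO-labelled arrays and 8.23, 8.45 and 8.39 on the WT-labelled arrays. Its groups do not overlap either, and the change was 0.24 ± 0.10 (adjusted p = 0.623).

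Wnt16 had 10.04, 9.71 and 9.49 on the KO-labelled and 9.38, 9.25 and 9.64 on the WT-labelled arrays (0.32 ± 0.17, adjusted p = 0.726), and the groups overlap through KO array 3 and wild-type array 3. Fzd1 had 9.07, 9.07 and 8.88 on the KO-labelled and 8.34, 8.91 and 8.92 on the WT-labelled arrays (0.29 ± 0.17, adjusted p = 0.806). Only wild-type array 1 stands away from the other 5 in Fzd1. Fzd10 shows the same layout, with 10.23, 10.07 and 9.97 on the KO-labelled and 9.43, 10.05 and 9.94 on the WT-labelled arrays (0.28 ± 0.17, adjusted p = 0.814). Wnt9a had 7.61, 7.66 and 7.47 on the KO-labelled and 7.62, 7.85 and 7.81 on the WT-labelled arrays (-0.18 ± 0.11, adjusted p = 0.820), with 1 KO array above the lowest wild-type array.

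The members that moved most in the bulge had no call here. Fzd2 read 8.67, 8.40 and 8.24 on the KO-labelled and 7.90, 8.52 and 8.53 on the WT-labelled arrays (0.12 ± 0.19), and Fzd3 read 9.04, 8.74 and 8.42 on the KO-labelled and 8.63, 8.54 and 8.66 on the WT-labelled arrays (0.13 ± 0.16). Fzd7 had a change of -0.10 ± 0.16 and Wnt9b one of 0.01 ± 0.13. The bulge and IFE arrays were probably normalized apart from each other, and a difference between their changes was not tested. Fzd6 was the only receptor whose groups did not overlap, with 11.17, 10.99 and 10.99 on the KO-labelled and 10.89, 10.91 and 10.92 on the WT-labelled arrays (0.14 ± 0.10, adjusted p = 0.860). In all, 3 of 32 members did not overlap, 2 higher and 1 lower on the KO-labelled arrays, against 4.11% of all genes as higher and 8.56% as lower. Wnt1, Wnt8b and Fzd4 were too dim to be tested and had changes of -0.13, 0.03 and 0.11. The second probe set of Wnt4 had a change of 0.32 (adjusted p = 0.863 over all probe sets).

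**Figure D3:**
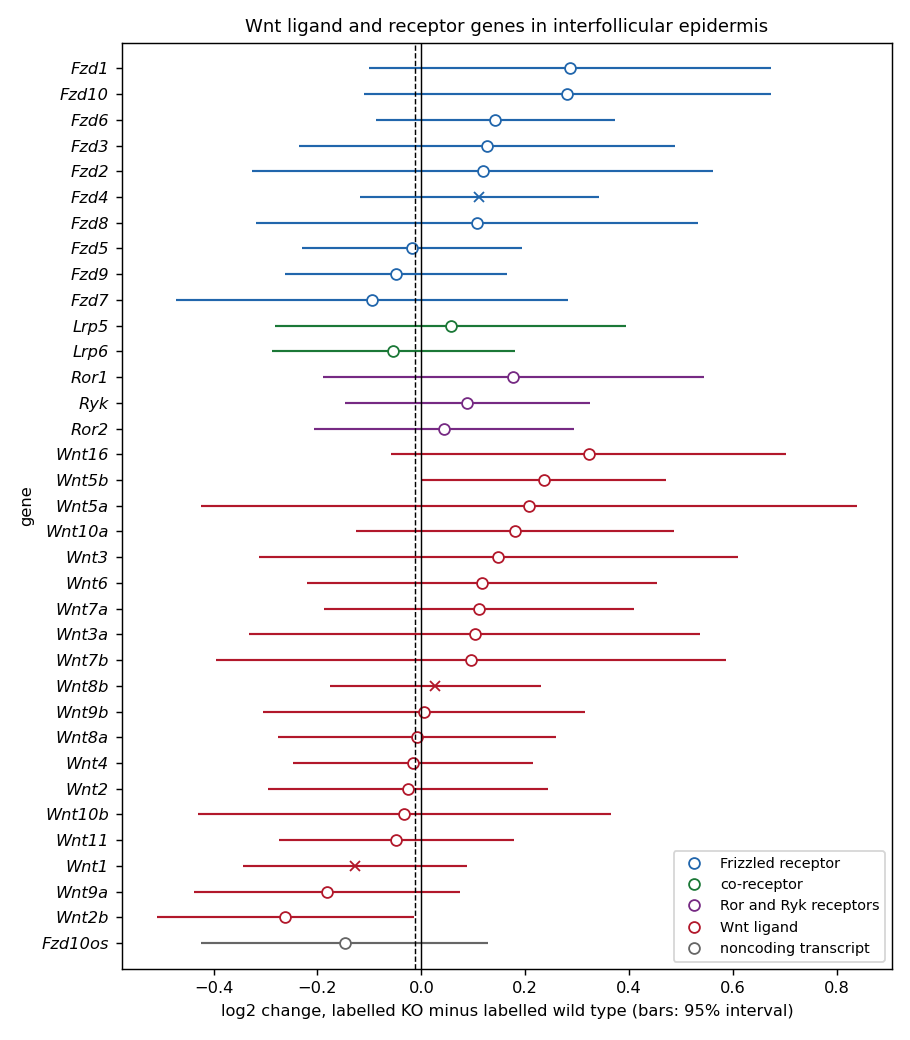
Log2 change of the 35 genes in IFE cells, arrays labelled KO minus arrays labelled wild type, with bars for the 95% interval. Open circles were tested and did not pass, crosses were too dim to be tested, and the dashed line is the median of all genes (-0.01). Only the intervals of Wnt2b (-0.51 to -0.01) and Wnt5b among the genes tested exclude 0, and neither passed after adjustment over all genes.

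One array weighed on these values. Wild-type array 1 was the lowest of the 6 arrays in 17 of the 32 members, or 53.1%, against 34.6% of all genes, and KO array 1 was the highest in 15 members, or 46.9%, against 40.3% of all genes. Wnt5a shows it: wild-type array 1 read 8.32, while wild-type arrays 2 and 3 read 9.44 and 9.20 and the KO-labelled arrays 9.20, 9.44 and 8.94. The median change of the 32 members was 0.09, against -0.01 for all genes, and without wild-type array 1 it was -0.05, against -0.06 for all genes. The same array had lower immune and differentiation markers than the other WT-labelled arrays. Its mean over the 6 T cell markers was 7.22, against 8.36 and 8.65 on wild-type arrays 2 and 3, with 6.67 to 6.78 on the KO-labelled arrays. The mean over the 5 Langerhans and myeloid markers was 7.30 on it, against 8.39 and 8.97 on the other WT-labelled arrays, with 7.01 to 7.18 on the KO-labelled arrays. The mean over the 4 measured differentiated epidermis markers was 10.78 on it, against 11.47 and 11.58 on wild-type arrays 2 and 3, with 10.64 to 10.90 on the KO-labelled arrays. No gene tested in the 9 marker lists passed in this comparison with the deposited values. Under the other scalings only the T cell marker Cd3g passed, as lower after cyclic loess. The part of these cells in the members' values was not tested.

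**Figure D4:**
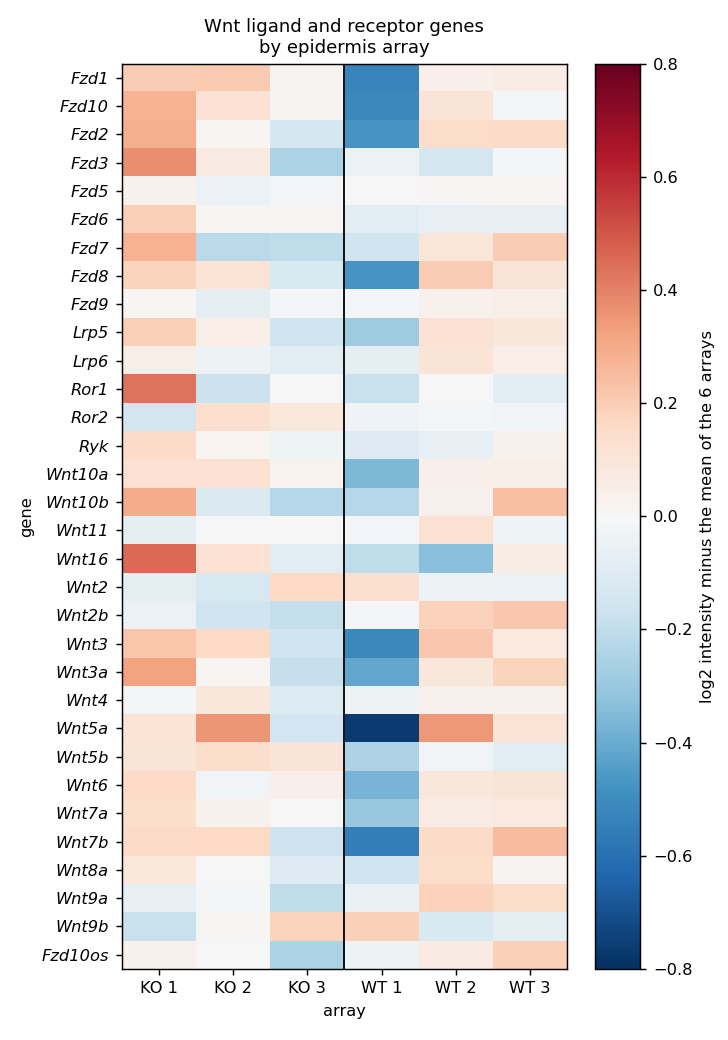
Log2 intensity of the 32 ligand and receptor genes tested in IFE cells on each array labelled KO (left) and wild type (right), minus the mean of the 6 arrays, in colour from blue (lower) to red (higher). The column of wild-type array 1 is the lowest of the 6 in 17 rows and that of KO array 1 the highest in 15.

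None of the genes tested in the 5 pathway lists passed in IFE cells. The smallest p was that of Apcdd1, a membrane protein that binds Wnt proteins and Lrp5, with means of 11.85 on the KO-labelled and 11.41 on the WT-labelled arrays (0.44 ± 0.14, adjusted p = 0.367). Dkk3 had a change of 0.38 ± 0.14 (adjusted p = 0.489), Sostdc1 of 0.34 ± 0.15 (adjusted p = 0.615) and Gpc4 of 0.33 ± 0.12 (adjusted p = 0.504). Tcf7l1 had 0.30 ± 0.14 (adjusted p = 0.665) and Vangl1 0.32 ± 0.15 (adjusted p = 0.691). Lgr5 and Sfrp5 were too dim to be tested here. The list medians lay between 0.07 below and 0.05 above the median of all genes.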

How the data were processed

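Each of the 12 samples was hybridised to 1 array. The deposited values are log2 intensities; per the submitters' processing notes the authors used RMA, and per the labels' protocols the RNA was amplified as a whole transcriptome before labelling. The 6 bulge and the 6 IFE columns are filled for different probe sets (34760 and 28853), so each comparison used its own 6 arrays. Probe sets were joined to genes by the symbols supplied for the value table, and those with several symbols or none were left out. Each gene was represented by 1 probe set, measured on all 12 arrays where possible and then with the highest mean. The 30% of genes with the lowest mean were left out as dim, which left 13956.

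Changes were tested with limma 3.58.1 (lmFit and eBayes, two-sided) under R 4.3.3, and p-values were adjusted by Benjamini-Hochberg across every gene tested. Values after ± are standard errors. The script was tested on simulated data. The number of arrays limits the precision. Every member is accounted for, per-array values are given for members past the threshold and for the 6 with the lowest p in IFE cells, and of each pathway list up to 4 genes with the smallest p were named; others were chosen after their values were seen. The members and lists were chosen with earlier results of these data known. Alternatives were other scalings and filters, trend and robust settings, all probe sets, a replicate block, all 12 arrays in 1 fit, and leaving out each array.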

Additional observations from a re-analysis of the deposited data

How the results depend on the processing

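No member gene past the threshold in the bulge changed sign under any alternative tried. The count of bulge genes past the threshold was 8866 (6311 higher, 2555 lower); it was 5814 (4117, 1697) after quantile normalization, 5739 (3531, 2208) after cyclic loess and 5301 (3494, 1807) with all 12 arrays in 1 fit. The split also moved to 8928 higher and 1355 lower after median centring, 6285 and 5564 with no filter on dim genes, and 5947 and 740 if the lowest 50% by level were dropped. The member count, 18, ranged from 12 to 19, with 12 (9 higher, 3 lower) for all 12 arrays in 1 fit, where Fzd4, Lrp5, Wnt3a, Wnt5a, Wnt10b and Wnt11 were lost, 13 of 22 tested with the lowest 50% left out, and 15 to 19 on leaving out 1 array. The bulge member median of -0.02 became 0.11 with the lowest 50% left out and 0.13 after median centring, and lay between -0.05 and 0.03 on leaving out 1 array. In IFE cells the members past the threshold stayed at 0 throughout, while the count of all genes, 27, was 16 with no filter, 47 with the lowest 50% left out, 49 after quantile normalization, 85 after cyclic loess, 56 with trend and robust settings, 407 with all 12 arrays in 1 fit, and 7 (without KO array 2) to 103 (without wild-type array 1) on leaving out 1 array. Fitting the replicate number as a block gave 9351 bulge genes with 18 members, and 3 IFE genes with 0 members; no member call changed. Same-numbered arrays had correlations of deviations from the group means of 0.24, 0.26 and -0.06 in the bulge and -0.44, 0.04 and -0.53 in IFE cells, and 4 of 6 bulge and 0 of 6 IFE arrays were closest to their own number. These values do not settle whether the bulge samples are paired. The main fits did not pair samples by number, since nothing in the labels says that the numbers pair them. Causes were not tested, beyond the fewer genes tested under the stricter filter. The 3 arrays in a group and the wider IFE spread limit what could be called.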
